A study of Mus musculus with 6 samples.

Results

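The genes described here are 44 genes of mitosis and the kinetochore, chosen by name from the 17092 genes of the count table. They comprise the cyclins of the G2 and M phases with *Cdk1*, mitotic kinases, regulators of the spindle checkpoint and of the anaphase-promoting complex (APC/C), centromere and kinetochore proteins, the chromosomal passenger complex, spindle motors and microtubule proteins, cytokinesis proteins, 2 transcription factors and 2 proteins of mitotic chromosomes. The RNA came from cultures of mouse embryonic fibroblasts (MEFs), primary connective tissue cells. The 3 WT libraries came from MEFs of wild-type mice, and the 3 *Aff3ir-ORF2-/-* libraries from MEFs of mice with a global knockout of *Aff3ir-ORF2*, a protein encoded by *Aff3ir*, a gene nested within *Aff3*. No agent, time point or age is given for either genotype, and nothing in the labels ties a library to a separate embryo, so p-values measure the spread between these libraries, which may be technical. The paper gives a range of culture passages for its MEFs, and no passage is given for a single library. *Aff3ir* was not analysed here, so the genotypes were not checked by the targeted gene.

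Total counts ranged from 17435133 to 17726034 in WT and from 18209421 to 18252330 in *Aff3ir-ORF2-/-* libraries, and each of the 44 genes had between 69 and 6878 counts in every library. Of 12 fibroblast markers, all were detected in every library, with a summed level of 31390 to 31569 CPM (TMM-scaled counts relative to library size) in WT and 25946 to 33363 CPM in *Aff3ir-ORF2-/-* libraries. Of these 12, 1 fell and 2 rose (adjusted p under 0.05 and at least 1.5-fold), where 7.27% of all tested genes fell and 14.2% rose. With 1 library left out, 0 to 3 fell and 1 to 3 rose (0 fell and 3 rose without *Aff3ir-ORF2-/-* replicate 1, 3 fell without *Aff3ir-ORF2-/-* replicate 2, and 1 rose without *Aff3ir-ORF2-/-* replicate 2, WT replicate 2 or WT replicate 3). Other cell types were also looked for. All 15 of 15 macrophage markers were higher in *Aff3ir-ORF2-/-* libraries, with a summed level of 21.2 to 24.5 CPM in WT against 1342, 1841 and 2275 CPM in *Aff3ir-ORF2-/-* replicates 1, 2 and 3, and *C1qa* and *C1qb* were at 0 in every WT library. Of the markers that define the type, *Csf1r* had 42 to 48 counts in WT and 637 to 1185 in *Aff3ir-ORF2-/-* libraries, *Adgre1* 8 to 11 and 552 to 935, and *Spi1* 1 to 3 and 123 to 231. Endothelial markers summed to 172 to 180 CPM in WT and 96.0 to 127 CPM in *Aff3ir-ORF2-/-* libraries, with *Pecam1* at 2 to 5 and *Cdh5* at 9 to 22 counts. Of the 5 endothelial markers tested, *Cdh5* and *Flt1* fell (log2 fold changes -0.90 and -0.83), *Kdr* and *Vwf* rose (1.01 and 2.24), and *Tek* was not called; 1 fell without WT replicate 2 or WT replicate 3. Epithelial markers summed to 12.6 to 24.9 CPM over all libraries, with *Epcam* at 0 to 4 and *Cdh1* at 1 to 8 counts. Of the muscle markers, *Des* and *Acta1* were higher in *Aff3ir-ORF2-/-* libraries (summed level of the list 86.2 to 88.4 CPM in WT and 265 to 375 CPM), while the muscle regulators *Myf5* and *Pax7* had 0 or 1 count.

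Mitosis divides the duplicated chromosomes between daughter cells. *Cdk1* with cyclin B drives entry, kinetochores built on centromeres attach chromosomes to spindle microtubules, and the spindle checkpoint holds back the APC/C until attachment is complete. The APC/C then has cyclin B and securin destroyed, separase opens cohesin, and the cell is cleaved. Transcripts of most of these genes are made in a late wave of each cell cycle, so that cultured fibroblasts that divide often hold more of them than resting fibroblasts do. The MuvB complex, joined by B-Myb and FoxM1, activates many of them in proliferating cells, and with p130 or p107 and E2F4 (the DREAM complex) it represses them in quiescent ones. MuvB complexes bind a short promoter element, the cell cycle genes homology region (CHR), often beside sites of the trimeric factor NF-Y.

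The 2 short elements were searched as plain letters in the 250 bases before each RefSeq start (build GRCm38.p6). The CHR was taken as TTTGAA and the NF-Y site as CCAAT, each on both strands, and no CHR match overlapped an NF-Y match. Windows were found for 36 of the 44 genes (38 windows, since some genes have more than 1 start). The 8 genes without a window were *Incenp*, *Ccna2*, *Pbk*, *Aurkb*, *Ska1*, *Foxm1*, *Tpx2* and *Kif20a*. By the calls given below, 6 of the 12 genes called lower had a window, against 30 of the 32 others. CCAAT was present in 27 of the 38 windows (71.1%) and in 33.8% of all 32851 promoter windows of the same length. At least 2 CCAAT matches were present in 47.4% of the member windows against 10.1% of all windows. TTTGAA was present in 12 windows (31.6%, against 16% of all windows), and both motifs together in 28.9% against 5.55%. These shares describe letters and are not evidence of binding. Below are 150 bases of 6 promoters that held TTTGAA, from the genes with the smallest adjusted p among those with such a promoter, called or not. They are shown for the positions of the motifs, and any link to the direction of change was not tested. Capitals mark both motifs as read on the strand of the gene, so that a match on the other strand reads as TTCAAA or ATTGG. They lie at chr11:99024190-99024339 (minus strand) for *Top2a*, chr19:37376232-37376381 (plus strand) for *Kif11*, chr7:135716380-135716529 (minus strand) for *Mki67*, chr15:102296143-102296292 (plus strand) for *Espl1* and chr10:69352913-69353062 (minus strand) for *Cdk1*, each ending at the base before the start, and at chr9:70421592-70421741 (minus strand) for *Ccnb2*, which covers positions -187 to -38 from the start.
Top2a: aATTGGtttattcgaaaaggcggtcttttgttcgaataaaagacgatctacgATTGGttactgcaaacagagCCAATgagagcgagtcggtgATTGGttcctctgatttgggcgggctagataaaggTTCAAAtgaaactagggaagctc
Kif11: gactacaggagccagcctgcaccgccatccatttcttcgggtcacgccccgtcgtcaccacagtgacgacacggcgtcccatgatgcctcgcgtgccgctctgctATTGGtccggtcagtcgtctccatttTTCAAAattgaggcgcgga
Mki67: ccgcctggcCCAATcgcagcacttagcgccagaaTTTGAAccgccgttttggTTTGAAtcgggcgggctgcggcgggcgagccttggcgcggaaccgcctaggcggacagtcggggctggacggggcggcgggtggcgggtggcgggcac
Espl1: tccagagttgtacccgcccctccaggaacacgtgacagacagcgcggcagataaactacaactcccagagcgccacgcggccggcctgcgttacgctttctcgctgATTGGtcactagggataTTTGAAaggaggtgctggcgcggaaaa
Cdk1: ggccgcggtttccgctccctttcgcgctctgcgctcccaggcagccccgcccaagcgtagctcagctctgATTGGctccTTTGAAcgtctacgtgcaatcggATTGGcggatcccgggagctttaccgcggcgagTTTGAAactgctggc
Ccnb2: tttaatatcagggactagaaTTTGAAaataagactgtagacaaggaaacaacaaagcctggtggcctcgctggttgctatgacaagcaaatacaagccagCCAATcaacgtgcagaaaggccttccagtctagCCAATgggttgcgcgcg

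**Figure D1:**
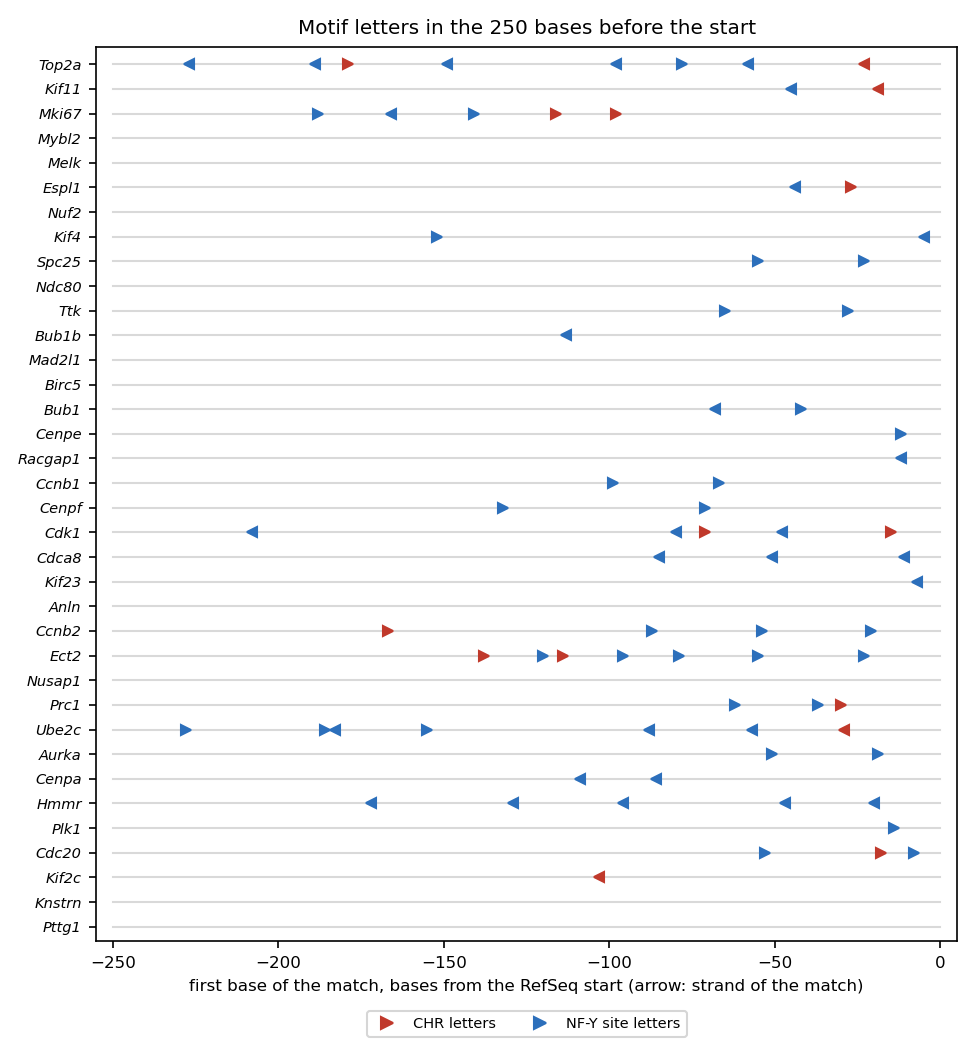
Matches to the CHR letters (red) and the NF-Y site letters (blue) in the 250 bases before the RefSeq start of the 36 genes with a promoter window, ordered from the smallest adjusted p at the top. The x axis is the first base of a match in bases from the start (several windows of 1 gene are drawn on 1 line), and the arrow gives the strand of the match. Blue marks are present for 25 genes and red marks for 11.

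In the stretches shown, *Top2a*, *Kif11* and *Espl1* each carry a single CHR match close to the start, with at least 1 NF-Y match upstream of it, and *Cdk1* and *Mki67* carry 2 CHR matches each. In *Ccnb2* the CHR match found lies farther from the start, and both NF-Y matches shown lie between that match and the start. Outside the stretches shown, *Top2a* has another CHR match at -179 and further NF-Y matches at -227 and -189. Further NF-Y matches also lie at -188 and -166 in *Mki67*, at -208 in *Cdk1* and at -21 in *Ccnb2*. The bases after the start are not covered. With 50 of them included, TTTGAA was present in 27 of the 38 windows, against 12 before the start alone. The stretches therefore do not settle how the motifs are arranged around each start. Split by the calls given next, the 250 bases before the start held TTTGAA in 3 of the 6 called genes with a window. Among the 30 others, 8 held it. CCAAT was present in 3 of the 6 and in 22 of the 30.

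Mitosis genes were mostly lower in *Aff3ir-ORF2-/-* MEFs. Of the 44 genes, 12 fell (adjusted p under 0.05 and at least 1.5-fold, quasi-likelihood test of edgeR, p adjusted by Benjamini-Hochberg over all tested genes, as for every adjusted p given here) and 0 rose. This is 27.3% of the genes. Of all 13075 tested genes, 7.27% fell and 14.2% rose by the same rule, 21.4% in either direction. Without the fold threshold, 31 of the 44 (70.5%) had an adjusted p under 0.05 on the lower side, against 27.5% of all tested genes, and 1, *Ccnb2*, on the higher side, against 29.3%. The other 12 missed the threshold. In 33 of the 44 genes all *Aff3ir-ORF2-/-* libraries lay below all WT libraries (32.7% of all tested genes did), and in 0 did they all lie above (33.3%). The log2 fold change was below 0 for 38 of the 44, against 49.4% of all tested genes. The median log2 fold change was -0.39, with a range from -1.33 in *Mybl2* to 0.28 in *Ccnb2*, beside a median of 0.01 over all tested genes. The decrease was therefore modest for most genes and spanned the 1.5-fold threshold. In RNA from a whole culture, fewer cells in mitosis and less of each transcript per cell cannot be told apart. The macrophage markers given above also differed between the genotypes, and their part in these values was not tested.

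**Figure D2:**
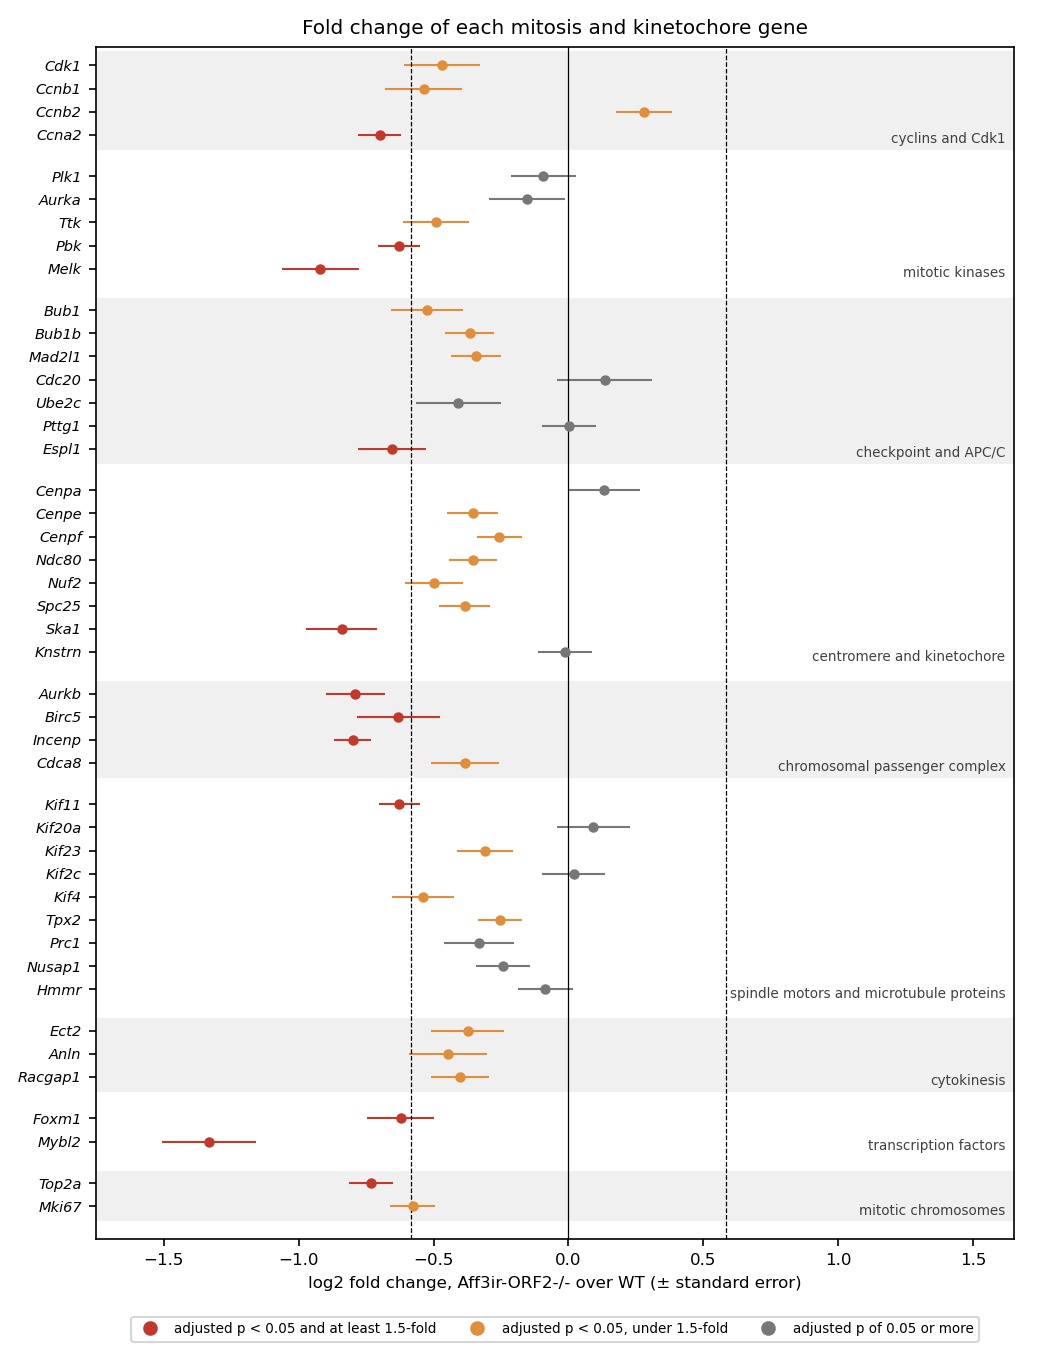
Log2 fold change of each of the 44 genes in *Aff3ir-ORF2-/-* over WT MEFs (x axis), with the standard error as a bar, grouped by role. Dashed lines mark 1.5-fold in either direction, and colours mark the 12 genes called lower (red), those with an adjusted p under 0.05 but a smaller change (orange), and the 12 that missed the threshold (grey).

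The cyclins did not move together. *Ccna2*, cyclin A2, which acts in S phase and up to early mitosis, had 2036, 2061 and 2195 counts in WT, against 1369, 1206 and 1511 in *Aff3ir-ORF2-/-* replicates 1 to 3. The groups did not overlap, and the level fell from 120 ± 4.63 to 74.1 ± 8.86 CPM (SD, n = 3 each), for a log2 fold change of -0.70 ± 0.08 (SE is the standard error, edgeR adjusted p = 0.000114). *Ccnb1*, cyclin B1, had 1673, 1710 and 1845 counts in WT, against 1311, 1002 and 1487 in *Aff3ir-ORF2-/-* libraries, with a log2 fold change of -0.54 ± 0.14 (SE, edgeR adjusted p = 0.0185). All *Aff3ir-ORF2-/-* libraries were lower, replicate 2 the most, but the change stayed under 1.5-fold. *Cdk1*, the kinase that both cyclins activate, had 1709, 1770 and 1777 counts against 1366, 1060 and 1579, and its log2 fold change was -0.47 ± 0.14 (SE, edgeR adjusted p = 0.0274). *Ccnb2*, cyclin B2, went the other way, with 559, 595 and 560 counts in WT, against 746, 617 and 833 in *Aff3ir-ORF2-/-* libraries. After scaling, *Aff3ir-ORF2-/-* replicate 2 lay within the WT range while the others lay above it. Its log2 fold change was 0.28 ± 0.10 (SE, edgeR adjusted p = 0.0469). Per 100 CPM of *Ccnb1*, *Ccnb2* stood at 33.4, 34.8 and 30.4 CPM in WT and at 56.9, 61.6 and 56.0 CPM in *Aff3ir-ORF2-/-* libraries, a ratio whose 3 *Aff3ir-ORF2-/-* values lay close together although both genes varied. This pair was chosen after its values had been seen, so the ratio is given without a test.

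**Figure D3:**
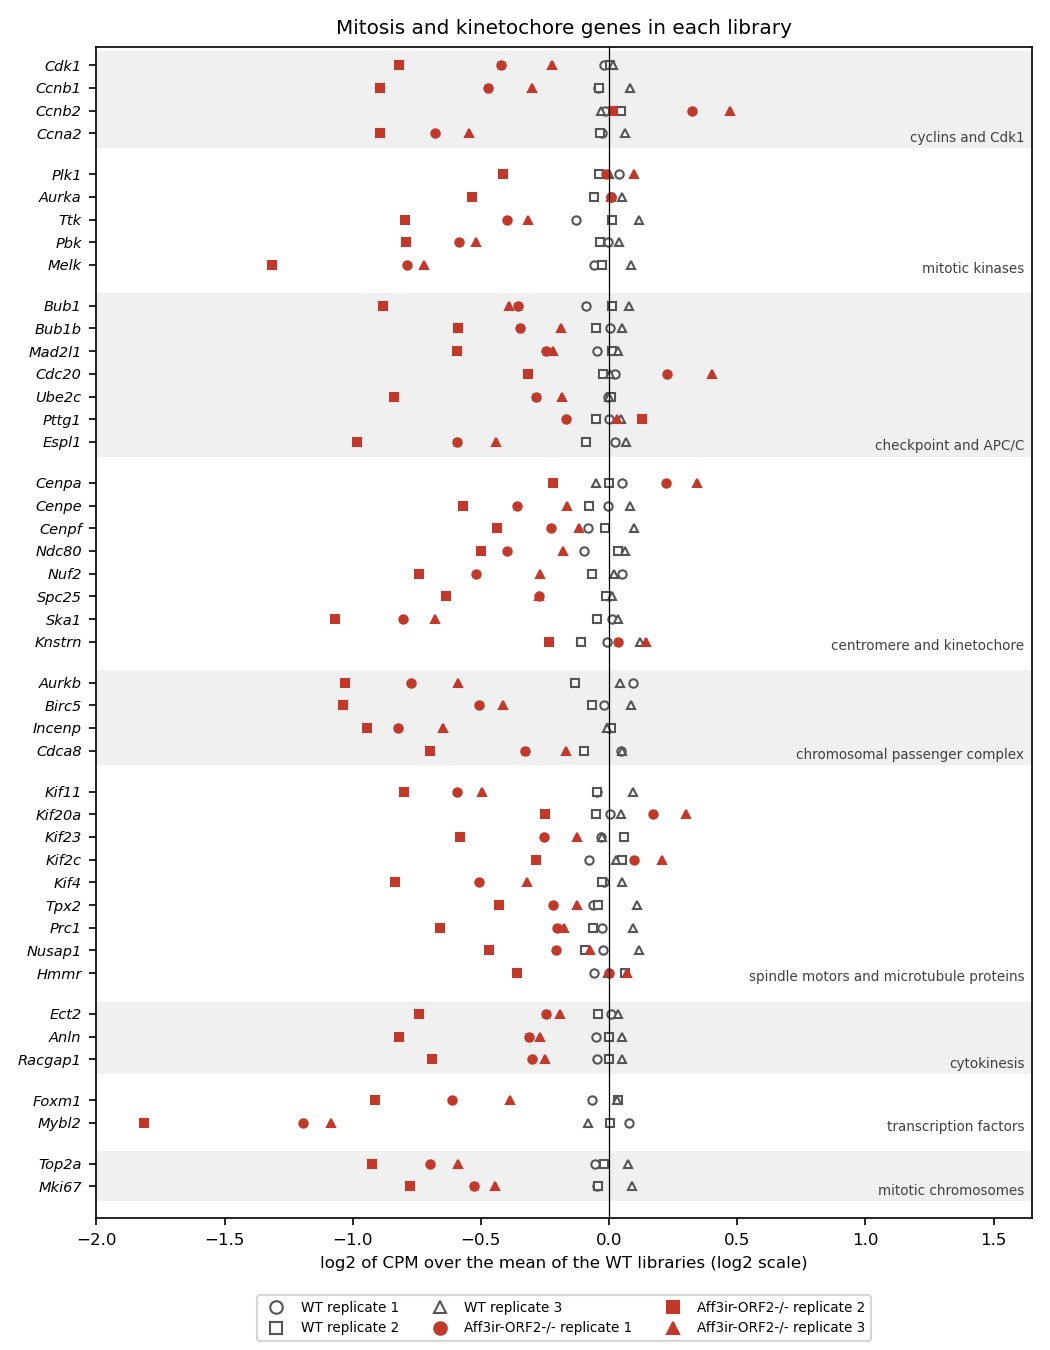
Level of each gene in each library, as log2 of CPM over the mean of the 3 WT libraries (x axis, 0 is the WT mean), grouped by role. Open symbols are WT and filled red symbols *Aff3ir-ORF2-/-* libraries, with the shape giving the replicate number. WT symbols cluster at 0, and *Aff3ir-ORF2-/-* replicate 2 (red squares) is the lowest *Aff3ir-ORF2-/-* library for 43 of the 44 genes, *Pttg1* being the exception.

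Among the 5 mitotic kinases, 2 fell (40%, against 7.27% of all tested genes) and the other 3 were not called. *Melk*, a kinase of proliferating cells, had 691, 719 and 772 counts in WT, against 440, 312 and 464 in *Aff3ir-ORF2-/-* libraries. The groups were well apart (41.7 ± 2.18 against 22.1 ± 4.64 CPM, SD, n = 3 each), with a log2 fold change of -0.92 ± 0.14 (SE, edgeR adjusted p = 0.00113). *Pbk*, a mitotic serine/threonine kinase, had 547, 546 and 572 counts against 386, 343 and 408, and its log2 fold change was -0.63 ± 0.08 (SE, edgeR adjusted p = 0.000109). *Plk1*, the polo kinase of spindle assembly and mitotic entry, had the most counts of the group. It had 1015, 979 and 1000 counts in WT, against 1035, 801 and 1125 in *Aff3ir-ORF2-/-* libraries, so that the groups overlapped, and its log2 fold change of -0.09 (standard error 0.12) did not pass the test (edgeR adjusted p = 0.54). *Aurka*, the centrosomal Aurora kinase, likewise overlapped (log2 fold change -0.15, edgeR adjusted p = 0.389). *Ttk*, the checkpoint kinase Mps1, passed on the adjusted p with a change under 1.5-fold (log2 fold change -0.49, edgeR adjusted p = 0.00774).

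Of the 7 checkpoint and APC/C genes, 1 fell by 1.5-fold (14.3%, against 7.27% of all tested genes). It was *Espl1*, separase, the protease that cleaves cohesin at anaphase, with 845, 797 and 883 counts in WT, against 583, 455 and 653 in *Aff3ir-ORF2-/-* libraries. No *Aff3ir-ORF2-/-* library reached the WT range, and the log2 fold change was -0.66 ± 0.13 (SE, edgeR adjusted p = 0.00315). *Bub1b*, the checkpoint protein BubR1, had 979, 961 and 1024 counts against 811, 701 and 913, a change of -0.37 on the log2 scale (SE 0.09, edgeR adjusted p = 0.00813). *Bub1* and *Mad2l1*, further checkpoint components, lay at -0.52 and -0.34 on the log2 scale and also passed on the adjusted p (0.0129 and 0.0114, edgeR). *Cdc20*, the APC/C activator that the checkpoint inhibits, had 966, 953 and 965 counts in WT, against 1174, 826 and 1337 in *Aff3ir-ORF2-/-* libraries. The *Aff3ir-ORF2-/-* libraries spread to both sides of the narrow WT range, with replicate 2 below it and replicates 1 and 3 above, and no difference passed the test (log2 fold change 0.13 ± 0.18 SE, edgeR adjusted p = 0.549). *Ube2c*, the ubiquitin-conjugating enzyme of the APC/C, was lower in every *Aff3ir-ORF2-/-* library but missed the threshold (log2 fold change -0.41, edgeR adjusted p = 0.0672). *Pttg1*, securin, the inhibitor of separase, had a log2 fold change of 0.00 ± 0.10 (SE, edgeR adjusted p = 0.987), and so the separase transcript fell while no change was detected for its inhibitor. The difference between both was not tested.

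Of the 8 centromere and kinetochore genes, 6 had an adjusted p under 0.05 on the lower side (75%, against 27.5% of all tested genes). Of these 6, 1 fell by 1.5-fold, 12.5% of the group against 7.27% of all tested genes. That gene, *Ska1*, of the Ska complex that holds kinetochores to microtubule ends, had the fewest counts of the 44 genes, with 135, 132 and 139 in WT and 81, 69 and 89 in *Aff3ir-ORF2-/-* libraries. The groups were separate, at 7.76 ± 0.231 and 4.33 ± 0.582 CPM (SD, n = 3 each), and the log2 fold change was -0.84 ± 0.13 (SE, edgeR adjusted p = 0.000506). The members include 3 subunits of the Ndc80 complex, which binds microtubules. *Nuf2* had 747, 702 and 741 counts against 532, 467 and 637 (log2 fold change -0.50 ± 0.11 SE, edgeR adjusted p = 0.00381), and *Ndc80* and *Spc25* lay at -0.35 and -0.39 on the log2 scale. *Cenpe*, a kinetochore motor and the member of the group with the most counts, had 1497, 1452 and 1609 counts against 1238, 1094 and 1426 (log2 fold change -0.36 ± 0.10 SE, edgeR adjusted p = 0.0131). In each of these genes all *Aff3ir-ORF2-/-* libraries were below all WT libraries. *Cenpf*, a large kinetochore protein, changed by -0.26 on the log2 scale (edgeR adjusted p = 0.0257). *Cenpa*, the centromeric histone H3 variant, had 455, 448 and 430 counts in WT, against 541, 408 and 593 in *Aff3ir-ORF2-/-* libraries, a spread across the WT range like that of *Cdc20* (log2 fold change 0.13 ± 0.13 SE, edgeR adjusted p = 0.414). *Knstrn*, a kinetochore and spindle protein, had a log2 fold change of -0.01 (edgeR adjusted p = 0.925).

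The chromosomal passenger complex corrects faulty attachments and later acts in cytokinesis, and 3 of its 4 genes fell (75%, against 7.27% of all tested genes). *Incenp*, its scaffold, had 1759, 1805 and 1774 counts in WT, against 1052, 989 and 1196 in *Aff3ir-ORF2-/-* libraries. It had the smallest adjusted p of the 44 genes, with a level of 102 ± 0.568 CPM in WT and 58.7 ± 6.10 CPM in *Aff3ir-ORF2-/-* libraries (SD, n = 3 each) and a log2 fold change of -0.80 ± 0.07 (SE, edgeR adjusted p = 1.41e-05). *Aurkb*, its kinase, had 665, 580 and 651 counts against 386, 330 and 441, a log2 fold change of -0.79 ± 0.11 (SE, edgeR adjusted p = 0.000318). Neither gene overlapped between genotypes. *Birc5*, survivin, fell by 0.63 on the log2 scale (SE 0.15, edgeR adjusted p = 0.0128). *Cdca8*, borealin, passed on the adjusted p alone (log2 fold change -0.38, edgeR adjusted p = 0.0308). All 4 genes thus had lower levels in every *Aff3ir-ORF2-/-* library than in any WT library, as had 32.7% of all tested genes.

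The 9 spindle motors and microtubule proteins had the median closest to 0 of the role groups, at -0.25 on the log2 scale. Of the 9, 1 fell by 1.5-fold (11.1%, against 7.27% of all tested genes). *Kif11*, the motor that pushes the spindle poles apart, had 1488, 1518 and 1661 counts in WT, against 1075, 954 and 1160 in *Aff3ir-ORF2-/-* libraries. The libraries of the genotypes were separate, and the log2 fold change was -0.63 ± 0.08 (SE, edgeR adjusted p = 0.000137). *Kif4*, a chromosome-bound motor, had 1015, 1029 and 1079 counts against 765, 624 and 878, a log2 fold change of -0.54 ± 0.12 (SE, edgeR adjusted p = 0.00498). *Tpx2*, the activator of Aurora A and the gene of this group with the most counts, had 2661, 2751 and 3039 counts against 2526, 2233 and 2715, a log2 fold change of -0.25 ± 0.08 (SE, edgeR adjusted p = 0.0245). *Kif23*, a motor of the central spindle, also passed on the adjusted p (log2 fold change -0.31, edgeR adjusted p = 0.0338). *Kif20a*, another motor of the central spindle, had 1655, 1628 and 1731 counts in WT, against 1967, 1500 and 2165 in *Aff3ir-ORF2-/-* libraries, with replicate 2 below and replicates 1 and 3 above the WT libraries (log2 fold change 0.09 ± 0.14 SE, edgeR adjusted p = 0.594). The other genes that missed the threshold were *Prc1*, *Nusap1*, *Hmmr* and *Kif2c*, with log2 fold changes of -0.33, -0.24, -0.09 and 0.02.

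Each of the 3 cytokinesis genes had an adjusted p under 0.05 on the lower side (27.5% of all tested genes did), and none reached 1.5-fold. *Anln*, anillin, a scaffold of the contractile ring, had 3773, 3981 and 4091 counts in WT, against 3319, 2390 and 3447 in *Aff3ir-ORF2-/-* libraries. All *Aff3ir-ORF2-/-* libraries were lower, and replicate 2 lay farthest from the others (226 ± 7.67 against 166 ± 32.9 CPM, n = 3 each, log2 fold change -0.45 ± 0.14 SE, edgeR adjusted p = 0.0379). *Racgap1*, of the centralspindlin complex, had 1910, 2011 and 2070 counts against 1694, 1323 and 1765, and its log2 fold change was -0.40 ± 0.11 (SE, edgeR adjusted p = 0.0159). *Ect2*, the activator of RhoA at the cleavage site, lay just inside the threshold (log2 fold change -0.37, edgeR adjusted p = 0.0498).

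Both transcription factors fell, where 7.27% of all tested genes did. *Mybl2*, B-Myb, had 1034, 1001 and 937 counts in WT, against 452, 301 and 492 in *Aff3ir-ORF2-/-* libraries, the largest change of the 44 genes. Its level of 56.8 ± 3.17 CPM in WT was 2.52 times that of 22.6 ± 5.67 CPM in *Aff3ir-ORF2-/-* libraries (SD, n = 3 each), with a log2 fold change of -1.33 ± 0.17 (SE, edgeR adjusted p = 0.000819). *Foxm1* had 1602, 1755 and 1740 counts against 1159, 963 and 1369, a log2 fold change of -0.62 ± 0.12 (SE, edgeR adjusted p = 0.00434). Neither overlapped between genotypes. *Top2a*, the topoisomerase that untangles sister chromatids, had 6211, 6475 and 6878 counts in WT, against 4201, 3668 and 4562 in *Aff3ir-ORF2-/-* libraries, a log2 fold change of -0.73 ± 0.08 (SE, edgeR adjusted p = 0.000106). *Mki67*, Ki-67, the coat protein of mitotic chromosomes and a common marker of proliferating cells, had 5689, 5803 and 6333 counts against 4304, 3705 and 4589. All *Aff3ir-ORF2-/-* libraries were lower, but at a log2 fold change of -0.58 ± 0.08 (SE, edgeR adjusted p = 0.000498) *Mki67* lay just under 1.5-fold and was not called.

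The *Aff3ir-ORF2-/-* libraries differed from each other more than the WT libraries did. For the 44 genes the SD was a median 4.09% of the mean in WT and 16.1% in *Aff3ir-ORF2-/-* libraries, against 4.39% and 7.69% over all tested genes. The SD in CPM was larger in *Aff3ir-ORF2-/-* libraries for all 44 genes, and for 72.2% of all tested genes. *Aff3ir-ORF2-/-* replicate 2 was the lowest of its genotype for 43 of the 44 (40.8% of all tested genes, and 55.5% of the 951 genes that fell), and the replicates stood in the order 2, 1, 3 from low to high for 40 (22% of all tested genes). The 44 genes summed to 3356, 3363 and 3559 CPM in WT and to 2639, 2089 and 2844 CPM in *Aff3ir-ORF2-/-* replicates 1, 2 and 3. The macrophage markers moved with the genotype but not in that order, since replicate 2 held the middle value of their sum, and the fibroblast markers summed highest in replicate 2, at 33363 CPM. The part of either in the mitotic values was not tested.

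Without *Aff3ir-ORF2-/-* replicate 2, 7 genes were called lower, where 7.63% of all tested genes were. They were *Ccna2*, *Melk*, *Ska1*, *Aurkb*, *Incenp*, *Mybl2* and *Top2a*. *Pbk*, *Espl1*, *Birc5*, *Kif11* and *Foxm1* dropped below 1.5-fold, although 33 genes still had an adjusted p under 0.05 on the lower side. The share of all tested genes that did so without this library is not given here. Without *Aff3ir-ORF2-/-* replicate 3, 19 were called lower, where 7.83% of all tested genes were. These 7 were also called under the other 13 alternatives that refit the data at the same thresholds (scalings, filters, tools, the replicate block and the other libraries left out). On the higher side, 5 genes had an adjusted p under 0.05 without *Aff3ir-ORF2-/-* replicate 2, all under 1.5-fold: *Ccnb2* (log2 fold change 0.39), *Cdc20* (0.31), *Cenpa* (0.28), *Kif20a* (0.23) and *Kif2c* (0.15). For this count too, no share of all tested genes is given. In all 6 libraries only *Ccnb2* passed, and with no filter or without any other single library 0 genes did. The higher side therefore rested on which libraries and genes entered.

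Further genes of the same processes, pooled, had shares and a median close to those of the 44, but the single lists differed. In lists of 114 other mitotic genes, 28 fell (24.6%) and 0 rose by 1.5-fold, where 7.27% of all tested genes fell and 14.2% rose. An adjusted p under 0.05 on the lower side was found for 80 (70.2%, against 27.5% of all tested genes). The median log2 fold change was -0.39. By list, the share that fell ran from 5.88% for the APC/C genes to 38.9% for the condensin and cohesin genes. Of 36 other kinetochore and centromere genes, 10 fell, among them *Mad1l1*, a checkpoint anchor (log2 fold change -0.61), and *Dsn1*, of the Mis12 complex (-0.67). Of 25 other spindle and cytokinesis genes, 7 fell. They included *Stil*, needed for centriole duplication, with 764, 799 and 787 counts in WT, against 313, 279 and 350 in *Aff3ir-ORF2-/-* libraries (log2 fold change -1.40 ± 0.08 SE, edgeR adjusted p = 1.88e-06), and the motor *Kif15* (-0.98). Of 18 condensin and cohesin genes, 7 fell, with *Ncapd3* and *Ncapg2* of condensin II at -0.90 and -0.85 on the log2 scale. Of 18 other regulators of G2 and M, 3 fell, including *Plk4*, the kinase of centriole duplication (-0.89), and *Pkmyt1*, an inhibitory kinase of Cdk1 (-0.98). *Ensa*, an inhibitor of a mitotic phosphatase and the gene of that list with the most counts, was the only gene of the 114 with an adjusted p under 0.05 on the higher side (log2 fold change 0.21, edgeR adjusted p = 0.00643). The 17 genes of the APC/C core and its regulators stood nearest to 0, with a median of -0.13 and a single gene that fell, the APC/C inhibitor *Fbxo5* (log2 fold change -0.92, edgeR adjusted p = 0.000285). That share, 5.88%, was below the 7.27% of all tested genes. Without the fold threshold, 8 of the 17 (47.1%) had an adjusted p under 0.05 on the lower side, against 27.5% of all tested genes. The genes with the most counts in the other 4 of these lists were *Anapc1* of the APC/C, *Hjurp*, a chaperone of the centromeric histone, *Ckap5*, a microtubule polymerase, and *Pds5a*, a cohesin regulator, and each was lower by less than 1.5-fold (log2 fold changes -0.37, -0.57, -0.18 and -0.18). With 1 library left out, 22 to 39 of the 114 genes fell. The condensin and cohesin count was 4 without *Aff3ir-ORF2-/-* replicate 2 and also 4 with upper quartile scaling, the other kinetochore count was 16 without *Aff3ir-ORF2-/-* replicate 3, and the count of other G2 and M regulators was 5 without *Aff3ir-ORF2-/-* replicate 1 and 5 without *Aff3ir-ORF2-/-* replicate 3.

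**Figure D4:**
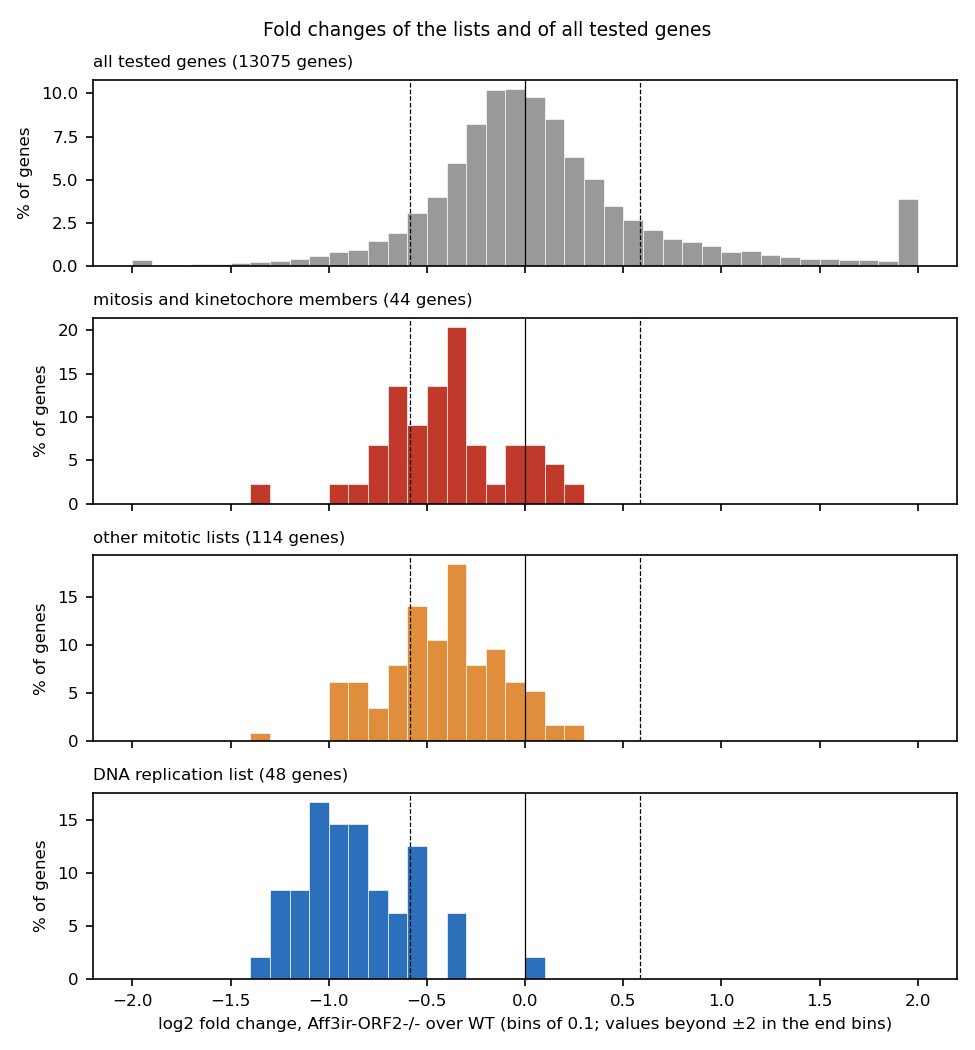
Distribution of log2 fold changes (*Aff3ir-ORF2-/-* over WT, bins of 0.1, values beyond 2 in either direction in the end bins) as percent of genes, for all 13075 tested genes, the 44 mitosis and kinetochore genes, the 114 other mitotic genes and 48 DNA replication genes. Dashed lines mark 1.5-fold. The medians are 0.01, -0.39, -0.39 and -0.90 from top to bottom.

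Genes of DNA replication, the S phase step before mitosis, showed a larger change. Of 48 such genes, 40 fell (83.3%) and 0 rose by 1.5-fold, where 7.27% of all tested genes fell and 14.2% rose. On the lower side, 47 had an adjusted p under 0.05, against 27.5% of all tested genes. The exception was *Gins3* (log2 fold change 0.02). The median log2 fold change was -0.90. *Pola1*, the catalytic subunit of DNA polymerase alpha, had 1250, 1451 and 1378 counts in WT, against 594, 567 and 609 in *Aff3ir-ORF2-/-* libraries (log2 fold change -1.28 ± 0.06 SE, edgeR adjusted p = 9.2e-07). *Chaf1b*, of the chromatin assembly factor CAF-1, had 837, 795 and 814 counts against 352, 330 and 363 (log2 fold change -1.30 ± 0.06 SE, edgeR adjusted p = 9.2e-07). Neither gene overlapped between genotypes, and 32.7% of all tested genes were likewise lower without overlap. *Rrm1*, the large subunit of ribonucleotide reductase and the gene of the list with the most counts, lay at -0.76 on the log2 scale. In each *Aff3ir-ORF2-/-* library the median of the 44 mitotic genes lay nearer to WT than that of the replication genes, at -0.34, -0.72 and -0.22 against -0.89, -1.09 and -0.77 on the log2 scale in replicates 1, 2 and 3. The difference between the lists was not tested.

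**Figure D5:**
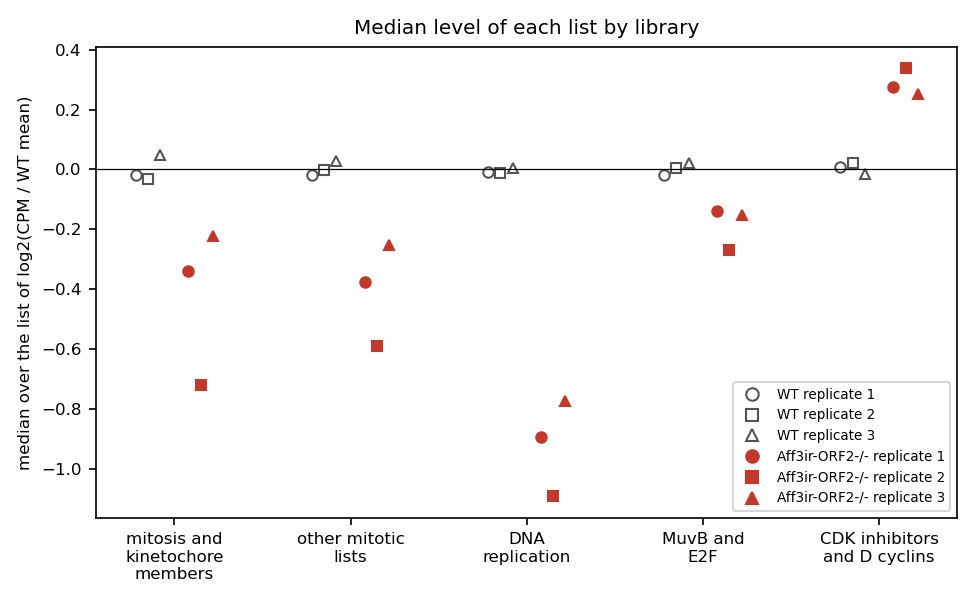
Median over each list of log2 of CPM over the WT mean (y axis) in each library, for the 44 mitosis and kinetochore genes, 114 other mitotic genes, 48 DNA replication genes, 22 genes of MuvB, E2F and the Rb family, and 12 genes of CDK inhibitors, D cyclins and their kinases (labelled CDK inhibitors and D cyclins). Open symbols are WT and filled red symbols *Aff3ir-ORF2-/-* libraries. *Aff3ir-ORF2-/-* replicate 2 (squares) has the lowest *Aff3ir-ORF2-/-* median in the first 4 lists and the highest in the last.

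A list of 12 CDK inhibitors, D-type cyclins and the kinases *Cdk4* and *Cdk6* moved in both directions. Of the 12, 3 rose and 0 fell by 1.5-fold, where 14.2% of all tested genes rose and 7.27% fell. Without the fold threshold, 7 had an adjusted p under 0.05 on the higher side (29.3% of all tested genes) and 3 on the lower side (27.5%), namely *Cdkn1c*, *Ccnd1* and *Cdk4*, and the median log2 fold change was 0.29. *Cdkn1a*, p21, had 4934, 4930 and 4879 counts in WT, against 8070, 8279 and 8066 in *Aff3ir-ORF2-/-* libraries, with a log2 fold change of 0.65 ± 0.04 (SE, edgeR adjusted p = 2.03e-06). *Cdkn2a*, the locus of p16INK4a and p19ARF, had 273, 258 and 240 counts against 642, 716 and 578 (log2 fold change 1.25 ± 0.09 SE, edgeR adjusted p = 5e-06). No library overlapped between genotypes for either gene, and in *Aff3ir-ORF2-/-* libraries their levels were 442 ± 2.49 and 35.1 ± 3.47 CPM (SD, n = 3). *Ccnd2*, cyclin D2, the gene of this list with the most counts, passed on the adjusted p with a change under 1.5-fold (log2 fold change 0.36, edgeR adjusted p = 0.000211).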

How the data were processed

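RNA-seq libraries from MEFs of 2 genotypes, 3 each, were analysed. Per the paper, paired-end DNBSEQ reads were filtered with SOAPnuke. The authors deposited estimated counts per gene and library, without normalization; between 10.6% and 11.3% of a library's values were not whole, and all were rounded. The submitters' processing notes name the build mm8; aligner, counter and annotation are not given in the sources used here. Depths are given above.

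Low-count genes were removed by filterByExpr (minimum count 10, minimum total 15). The 13075 genes kept were scaled by TMM (factors 0.989 to 1.02, also used for CPM) and tested together with edgeR 4.0.16's robust quasi-likelihood test and Benjamini-Hochberg adjustment (R 4.3.3). Calls needed an adjusted p under 0.05 and at least 1.5-fold. The SE is the log2 fold change over the square root of F. No covariate or block was used. Alternatives were other scalings, filters and thresholds, DESeq2 1.42.0, limma 3.58.1 voom, a replicate block and leaving out each library.

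The 44 genes, the other lists and the markers were chosen with earlier results of these data known. In each role group, counts per library are given for the genes with the 2 smallest adjusted p and the 1 with the most counts, and of each other list for up to 2 called genes per direction by adjusted p and the 1 with the most counts, in part by fold change only; *Cdk1*, *Ccnb2*, *Cenpa*, *Kif20a*, *Gins3*, *Cdkn1c*, *Ccnd1*, *Cdk4* and the endothelial markers named were added after their values had been seen. Promoters came from the RefSeq table of GRCm38.p6, matched by symbol; the count table carries no coordinates. Motifs were searched on both strands. Figures were drawn with matplotlib 3.10.9.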

Additional observations from a re-analysis of the deposited data

How the results depend on the processing

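The median log2 fold change of the 44 genes stayed negative under all 14 alternatives that refit the data, from -0.50 to -0.28. With another scaling, a minimum of 10 counts in every library, DESeq2, limma voom or the replicate block, 12 genes fell, and with no filter 13 did. None of the 44 rose by 1.5-fold under these, without any 1 library, or at an unadjusted p (12 fell), and the zeros of the other mitotic and replication lists also held by DESeq2, limma voom and the unadjusted p. Leaving out 1 library gave 7 to 19 genes that fell. The count was 7 without *Aff3ir-ORF2-/-* replicate 2, where 7.63% of all tested genes fell. It was 19 without *Aff3ir-ORF2-/-* replicate 3, where 7.83% did. Same-numbered libraries deviated together with correlations of 0.0145 to 0.0424, each the highest of its library, which is a hint from the data, not the design, so the number was not taken as a pairing. Under the replicate block, 34 genes in place of 31 had an adjusted p under 0.05 on the lower side. With 1 library left out, this count was 26 without WT replicate 1, 26 without WT replicate 2 and 21 without WT replicate 3. It was 28, 33 and 34 without *Aff3ir-ORF2-/-* replicates 1, 2 and 3. No share of all tested genes is given for these refits at the adjusted p alone. Of the 44 genes, 8 changed sign under an alternative, and none of these was called.

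The fold threshold moved the counts most, by construction. With 2-fold, 1 of the 44 genes fell, as did 317 of all tested genes (1096 rose), 17 replication genes and 1 other mitotic gene, and 1 CDK inhibitor or D cyclin rose. With no fold threshold, 31 fell and 1 rose of the 44, 3591 and 3831 of all tested genes, 80 and 1 of the other mitotic genes, 3 and 7 of the CDK inhibitors and D cyclins, and 10 and 4 of the MuvB and E2F genes. In a test against a 1.5-fold change, 2 of the 44 fell, as did 410 of all tested genes (1074 rose) and 15 other mitotic genes, 1 CDK inhibitor or D cyclin rose, and 0 MuvB or E2F genes rose (1 otherwise). With 1 library left out, the log2 fold change went from -0.20 to 0.0409 for *Plk1*, -0.24 to 0.0027 for *Aurka*, -0.0231 to 0.31 for *Cdc20*, -0.0693 to 0.076 for *Pttg1*, -0.0987 to 0.085 for *Knstrn*, -0.0276 to 0.23 for *Kif20a*, -0.0856 to 0.15 for *Kif2c* and -0.17 to 0.0305 for *Hmmr*. *Knstrn* was at 0.0243 by upper quartile and 0.0159 by total counts, and *Pttg1* at -0.0128 with no filter, -0.0021 by limma voom and -0.0003 with the replicate block. The cause of these sign changes was not tested. With 3 libraries of each genotype, the spread of the *Aff3ir-ORF2-/-* libraries limits which small changes can be detected.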

Other observations

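Of 22 genes of MuvB, the Rb family and E2F, 3 fell and 1 rose by 1.5-fold, where 7.27% of all tested genes fell and 14.2% rose. The median log2 fold change was -0.18. *Rbl1*, p107, had 957, 990 and 982 counts in WT, against 490, 478 and 555 in *Aff3ir-ORF2-/-* libraries (log2 fold change -1.02 ± 0.07 SE, edgeR adjusted p = 2.9e-06). *E2f8*, an atypical repressor, was at -1.10 on the log2 scale (edgeR adjusted p = 1.34e-05). *E2f2*, an activator, rose from 37, 27 and 29 counts to 58, 78 and 62 (log2 fold change 1.01 ± 0.20 SE, edgeR adjusted p = 0.00223). *Rbbp4*, a MuvB subunit that other chromatin complexes also contain and the gene of this list with the most counts, was lower by less than 1.5-fold (log2 fold change -0.51, edgeR adjusted p = 1.4e-05). The groups did not overlap for these genes.

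The share of promoters with the CHR letters depended on where the window ended. With the 50 bases after the RefSeq start included, a window chosen after seeing the data, TTTGAA was present in 27 of the 38 member windows (71.1%), against 12 (31.6%) in the 250 bases before the start alone. Over all 32851 windows the share went from 16% to 17.9%. By call, the longer window held TTTGAA in 3 of the 6 called genes with a window and in 22 of the 30 others.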
